A study of Rattus norvegicus with 6 samples.

Results

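The transcript levels of 34 globin, heme synthesis and erythroid genes were compared in rat Schwann cell precursors (SCPs) and repair Schwann cells (RSCs). The genes were chosen by name, as embryonic and adult globins, a globin chaperone, enzymes of heme synthesis, iron importers, membrane and skeleton proteins, blood group carriers, erythroid regulators and red cell enzymes. All 34 were found among the 29468 symbols of the 6 sample tables, Epb41 under its older symbol Epb4.1. Red blood cells carry oxygen on hemoglobin, an assembly of alpha-type and beta-type globin chains that each hold a heme. The first red cells of the embryo use embryonic chains, from Hbz on the alpha side and Hbe1 on the beta side, and later red cells use the adult chains from Hba1, Hba2 and Hbb. Erythroid cells also switch on the heme pathway, iron import, a special membrane skeleton and a small set of transcription factors, and mammalian red cells lose their nucleus but keep globin mRNA for a time.

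SCPs were wild-type LEWIS cells from sciatic nerves and brachial plexus of untreated rat embryos at embryonic day 14 (n = 3). RSCs were wild-type LEWIS cells from the sciatic nerve of rats 10 weeks of age, taken distal to a cut made 1 week earlier (n = 3). Wild type is the genotype in the labels, whereas the study took the cells it grafted from RFP-transgenic LEWIS rats and describes no separate preparation for RNA. The nerves were dissociated with enzymes, and the cells still afloat after a short plating on bare plastic, done to deplete fibroblasts and macrophages, were taken for RNA. No cell sorting is described, and a step that lyses red cells is not given in the sources used here. The 3 samples of a group came from separate sets of cells, and whether embryos or rats were pooled within a set is not stated. In bulk RNA of this kind, fewer cells of a type and less RNA per cell cannot be told apart.

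Levels are in FPKM, fragments per kilobase of transcript relative to the mapped total, summed over the transcripts that carry a gene's symbol. The absolute depth of the samples is unknown, and relative depth, from the coverage behind each unit of FPKM, was 0.88 to 1.00 of the deepest sample in SCPs and 0.79 to 0.84 in RSCs. Sox10, the transcription factor that marks the Schwann cell lineage, was at 175 to 181 FPKM in SCPs and at 143 FPKM or more in RSCs, while Erbb3, the neuregulin receptor, was listed at 0 in SCP1 and RSC2. A listed 0 in these tables can therefore be a failed estimate, and genes with such values are given sample by sample. Markers of other cells also moved with the groups. The summed level of 11 macrophage markers was 21.9 to 65.0 FPKM in SCPs and 2941 to 3750 FPKM in RSCs, and that of 8 fibroblast markers 642 to 1026 and 5385 to 8067. The sum of 10 endothelial markers was 56.0 to 95.3 FPKM in SCPs and 137 to 147 FPKM in RSCs, with most of the difference in Cldn5 and Esam, and the groups overlapped for 5 of the 10. The part of these cells in the results was not tested.

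The globin genes stand first because they hold most of the FPKM of the 34 genes, and their start sites show which of them share sequence features. Of the 34 genes, 27 had a promoter in the RefSeq-derived table of rat build GRCr8, 25 by symbol and 2, Hba1 and Hba2, through their RefSeq accessions (Hba-a1 and Hba-a2 there). The 150 bases before the start of an embryonic and an adult gene of each cluster are shown 5′ to 3′ on the gene's strand, with capitals, on either strand, at GATAA (the core that GATA factors bind), at the CCAAT box, at the TATA-box end ATAAA and at CACACCC (the box that KLF1 binds).
Hbe1 (embryonic, beta-type; chr1:167696281-167696430, minus strand): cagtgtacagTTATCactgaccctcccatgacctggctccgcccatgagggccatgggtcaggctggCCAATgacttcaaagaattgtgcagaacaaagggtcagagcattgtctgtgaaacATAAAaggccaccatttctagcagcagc
Hbb (adult, beta-type; chr1:167663722-167663871, minus strand): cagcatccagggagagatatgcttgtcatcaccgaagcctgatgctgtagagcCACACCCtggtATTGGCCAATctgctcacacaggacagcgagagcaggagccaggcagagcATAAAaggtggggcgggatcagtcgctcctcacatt
Hbz (embryonic, alpha-type; chr10:15849758-15849907, minus strand): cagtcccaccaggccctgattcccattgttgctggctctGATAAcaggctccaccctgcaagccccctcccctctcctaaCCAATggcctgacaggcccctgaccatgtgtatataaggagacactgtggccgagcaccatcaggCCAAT
Hba1 (adult, alpha-type; chr10:15842581-15842730, minus strand): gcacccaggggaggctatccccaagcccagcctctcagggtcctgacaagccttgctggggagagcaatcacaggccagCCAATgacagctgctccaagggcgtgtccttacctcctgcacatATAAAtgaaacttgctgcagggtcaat

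All 4 windows hold CCAAT, 83 bases before the start in Hbe1, 81 in Hbb, 70 in Hbz and 71 in Hba1. Hbb holds another copy on the opposite strand directly beside the first, and Hbz another on the gene's strand 5 bases before the start. ATAAA lies 28 bases before the start in Hbe1, 36 in Hbb and 27 in Hba1. The Hbz window has no ATAAA but holds TATAAG, which differs from TATAAA in the last letter. CACACCC is found in Hbb alone among the 5 globins, 97 bases before its start. In the full 250 bases before the start, CCAAT was present for 5 of 5 globins and for 15 of the 27 genes (55.6%), against 34.3% of 27457 promoters. GATAA was present for 4 of 5 globins, all but Hbb, and for 12 of the 27 genes (44.4%), against 23.2% of all promoters. CACACCC was present for 5 of the 27 genes (18.5%; Gata1, Gypc, Hbb, Klf1 and Trim10) and 6.05% of all promoters, AGATAA for 5 (18.5%) and 10.0%, TATAAA, which contains ATAAA, for 3 (11.1%) and 13.1%, ATAAA for 6 (22.2%) and 38.9%, and TGACTCA, the NFE2 core, for 1 (3.7%, Trim10) and 3.98%. GATAA, which AGATAA contains, CCAAT and ATAAA were chosen after the sequences were seen. These are matches of letters in a window and say nothing of binding in these cells.

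The embryonic globins were abundant in SCPs and listed at 0 in RSCs. Hbe1 (chromosome 1 from 169003904 to 169005184 of rn6) was at 16879, 13854 and 68201 FPKM in SCP1, SCP2 and SCP3 and at 0 in each RSC sample. Hbz (chromosome 10 from 15609348 to 15610826) was at 6745, 2796 and 6325 FPKM in SCP1, SCP2 and SCP3 and at 0 in each RSC sample. The groups did not overlap for either gene, and both passed the limma test on log2(FPKM + 1), with adjusted p of 3.2e-05 for Hbe1 and 1.4e-05 for Hbz. SCP3 held 4.92 times the Hbe1 of SCP2, whereas its Hbz was close to that of SCP1. Summed, embryonic globins came to 23624, 16651 and 74526 FPKM in the SCP samples. The exact two-sided permutation test of this sum gave p = 0.1, the smallest p that 3 against 3 samples allow.

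The adult alpha globins were present in both groups and much higher in SCPs. Hba1 (chromosome 10 from 15602794 to 15603649) was at 7704, 8550 and 37622 FPKM in SCP1, SCP2 and SCP3 and at 1230, 909 and 1207 FPKM in RSC1, RSC2 and RSC3. Hba2 (chromosome 10 from 15589364 to 15590207) was at 3830, 5380 and 19274 FPKM in SCP1, SCP2 and SCP3 and at 567, 510 and 626 FPKM in RSCs. Every SCP sample lay above every RSC sample for both genes, and SCP3 stood far above the other SCP samples. The mean level was 16.1 times higher in SCPs for Hba1, with a log2 fold change (RSC minus SCP) of -3.61 (standard error, SE, 0.62; adjusted p = 0.0048, limma). For Hba2 it was 16.7 times higher, with a log2 fold change of -3.70 (SE 0.59, adjusted p = 0.0036, limma). The ratio of Hba1 to Hba2 was 1.59 to 2.01 in SCPs and 1.78 to 2.17 in RSCs, so it overlapped between the groups. Hba1 and Hba2 are close copies, and how reads were divided between them is uncertain.

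Hbb, the adult beta chain, did not follow the alpha chains. Its level (chromosome 1 from 168971269 to 168972680) was 279, 890 and 3883 FPKM in SCP1, SCP2 and SCP3 and 601, 448 and 639 FPKM in RSC1, RSC2 and RSC3. SCP1 lay below all RSC samples and SCP3 above them, and the log2 fold change was -0.83 (SE 0.91, adjusted p = 0.49, limma), with a 95% interval from -3.07 to 1.42. Without SCP3 the log2 fold change was 0.16. The other adult beta-cluster symbols showed the same order of samples within SCPs. LOC100134871 was at 325, 804 and 3333 FPKM in SCPs and from 314 to 407 FPKM in RSCs, LOC689064 at 266, 469 and 2194 and from 95.2 to 123, and Hbb-b1 at 40.1, 209 and 1089 and from 102 to 153. None of these 3 passed p under 0.01. Their sum with Hbb was 911, 2372 and 10500 FPKM in SCP1, SCP2 and SCP3 and 1145, 959 and 1322 in the RSC samples, and the exact two-sided permutation test of the difference gave p = 0.4.

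**Figure D1:**
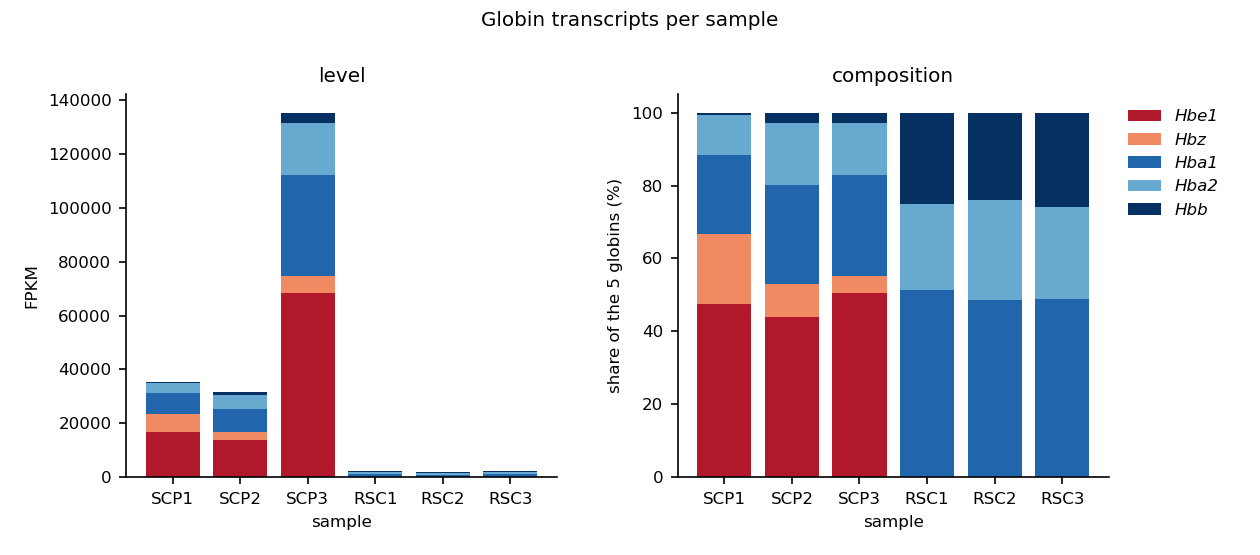
Stacked bars give the FPKM (left, from 0) and the share in percent (right) of the 5 globins Hbe1, Hbz, Hba1, Hba2 and Hbb in each of the 3 SCP and 3 RSC samples. The SCP bars reach 31470 to 135306 FPKM, with SCP3 highest, against 1867 to 2472 FPKM in the RSC bars, and the embryonic shares Hbe1 and Hbz appear in the SCP bars only, since both are listed at 0 in RSCs.

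The make-up of the globin pool differed between the groups as well as its size. In SCP1, SCP2 and SCP3 the embryonic genes made up 66.7%, 52.9% and 55.1% of the 5 globins, and in the RSC samples 0%. On the beta side Hbe1 held 98.4%, 93.97% and 94.6% of Hbe1 plus Hbb in SCP1, SCP2 and SCP3. It held 79.3%, 85.4% and 83.7% once embryonic Hbg1 and Hbe2 and the other adult beta-cluster symbols were counted too. Over that whole cluster, the embryonic genes Hbe1, Hbg1 and Hbe2 together held 95.7%, 85.4% and 87.1%. On the alpha side Hbz held 36.9%, 16.7% and 10.0% of Hbz, Hba1 and Hba2, so adult chains made up most of the alpha-type FPKM in each SCP sample. SCP1 had the highest embryonic share on both sides and the lowest Hbb. The ratio of alpha-type to beta-type FPKM was 1.07, 1.13 and 0.877 in SCP1, SCP2 and SCP3 and 2.99, 3.16 and 2.87 in RSC1, RSC2 and RSC3, over these 5 genes. With the other beta-cluster symbols counted it was 0.859, 1.03 and 0.776 in SCPs and 1.57, 1.48 and 1.39 in RSCs, so the groups still lay apart but by less. Together the 5 globins held 6.58%, 6.05% and 21.9% of all named FPKM in the SCP samples and 0.367% to 0.482% in RSCs. These shares and ratios use named transcripts only. At Hbe1, unnamed transcripts held a further 11441, 5962 and 68432 FPKM in SCP1, SCP2 and SCP3 and 0 in RSCs. Counting them would raise the embryonic share and lower the alpha to beta ratio in each SCP sample. In SCP3 the unnamed transcripts at Hbe1 were short pieces of 326 and 331 bases, where named Hbe1 has 444, so their FPKM is uncertain. Named Hbe1 also lay above its own deposited upper bound, of 9729, 8148 and 38369 FPKM in SCP1, SCP2 and SCP3. The bars of globin level and composition show the size and make-up of the named pool.

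Of the adult globins, the summed level was 11814, 14819 and 60779 FPKM in SCP1, SCP2 and SCP3 and 2398, 1867 and 2472 FPKM in RSC1, RSC2 and RSC3. The mean was 12.97 times higher in SCPs and the groups lay apart, with an exact two-sided permutation p of 0.1, the smallest possible. Among the remaining globin symbols, Hbg1, an embryonic beta-type gene of the same cluster, was at 3488 and 2766 FPKM in SCP1 and SCP3, at 0 in SCP2 and at 0 in all RSC samples, and did not pass the test (adjusted p = 0.097, limma). Hbe2 was listed above 0 in SCP3 alone, at 15.0 FPKM. Cygb, the cytoglobin of fibroblast-like and other cells outside the red lineage, went the other way, at 1.26, 2.11 and 1.29 FPKM in SCP1, SCP2 and SCP3 and at 58.0, 77.0 and 68.8 FPKM in RSCs, with a log2 fold change of 4.76 (SE 0.19, adjusted p = 3.0e-05, limma). It was the only one of the 6 tested other globins with p under 0.01.

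Over the whole set, 28 of the 34 genes reached the mean of 1 FPKM over the 6 samples that the test required. The other 6 were Alas2, Sptb, Ank1, Ermap, Gata1 and Trim10. At an unadjusted p under 0.01, which 40.5% of all 13003 genes tested had, 18 genes were higher in SCPs, where 22.4% of all genes were, none was higher in RSCs, where 18.1% of all genes were, and 10 did not pass. For a higher level in RSCs, 1 gene had an unadjusted p under 0.05. At an adjusted p under 0.01, 16 genes were higher in SCPs. Of all calls, 44.6% were on the RSC side, and 56.1% were after median-of-ratios scaling, under which 17 of the 34 genes were higher in SCPs and none in RSCs. A difference over 4-fold at p under 0.01 was found for 11 genes higher in SCPs, against 3.78% of all genes tested, and for none higher in RSCs, against 7.81%. The median log2 fold change of the 28 genes was -1.83, against -0.17 for all genes tested. Of the 28, 12 had a mean under 1 FPKM in RSCs and so passed the filter through their SCP level, and 11 of the 18 calls were among these. The remaining 7 calls were among the 16 genes whose RSC mean was 1 FPKM or more. SCP samples lay above all RSC samples for 21 genes (33.7% of all genes tested did), RSC samples lay above for 1, Bpgm (24.9% of all genes did), and the groups overlapped for 6.

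**Figure D2:**
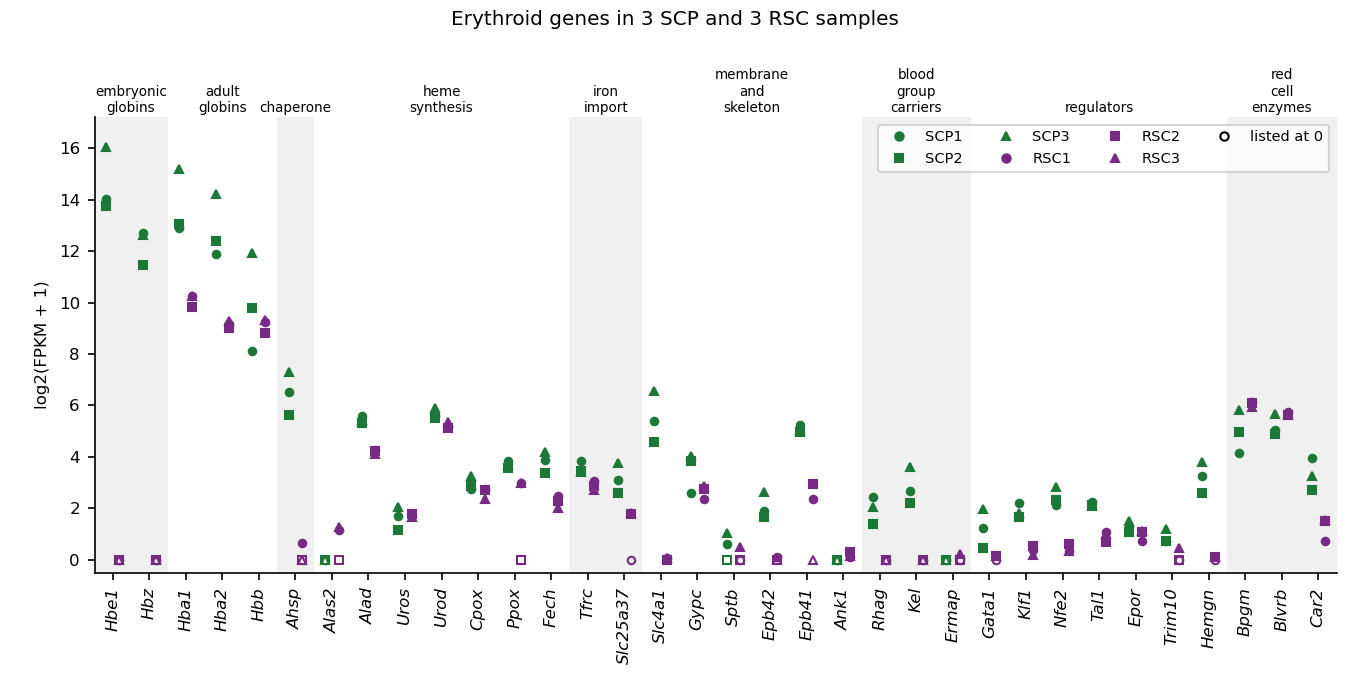
Each point is 1 sample's log2(FPKM + 1), with green for the 3 SCP and purple for the 3 RSC samples, genes in order of their role along the horizontal axis and open points for values listed at 0. SCP points lie above RSC points for most genes, whereas they overlap for Hbb, Uros, Cpox, Gypc, Epor and Blvrb, and RSC points lie above SCP points for Bpgm.

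Ahsp, the chaperone that holds free alpha globin, was among the genes with the widest gap. It was at 90.6, 49.0 and 159 FPKM in SCP1, SCP2 and SCP3, at 0.574 FPKM in RSC1 and at 0 in RSC2 and RSC3. Its SCP order, with SCP3 highest and SCP2 lowest, was also that of Hbe1. The log2 fold change was -6.27 (SE 0.45, adjusted p = 0.00019, limma).

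Of the 7 enzymes of heme synthesis in the set, only some were higher in SCPs. Alad, the second enzyme, was at 47.2, 39.1 and 42.5 FPKM in SCP1, SCP2 and SCP3 and at 18.2, 17.99 and 16.3 FPKM in RSCs. The groups lay well apart with little spread inside either, at a log2 fold change of -1.24 (SE 0.11, adjusted p = 0.00038, limma). Fech, which puts iron into the ring in the last step, was at 13.6, 9.46 and 17.1 FPKM in SCPs and at 4.53, 3.92 and 3.06 FPKM in RSCs. It too had no overlap, with a log2 fold change of -1.55 (SE 0.25, adjusted p = 0.0040, limma).

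Uros, Urod, Cpox and Ppox did not pass the test. Uros was at 2.25, 1.22 and 3.10 FPKM in SCPs and at 2.33, 2.39 and 2.16 FPKM in RSCs. The RSC samples lay inside the range of the SCP samples, with a log2 fold change of 0.09 (95% interval from -0.60 to 0.78). With unnamed transcripts counted, Uros was at 9.59, 6.47 and 8.60 FPKM in SCPs and at 4.45, 4.90 and 4.06 FPKM in RSCs, the groups lay apart and the log2 fold change was -0.74 (adjusted p = 0.0091, limma). Urod was at 47.4, 44.2 and 58.5 FPKM in SCPs and at 35.0, 33.9 and 39.7 FPKM in RSCs, apart but by little, with a log2 fold change of -0.45 (adjusted p = 0.036, limma). Cpox was at 5.68, 6.29 and 8.58 FPKM in SCPs and at 5.803, 5.58 and 4.105 FPKM in RSCs, and its groups overlapped. Ppox was at 13.2, 10.7 and 12.0 FPKM in SCPs and at 6.90, 0 and 6.85 FPKM in RSCs, where the 0 in RSC2 set the spread. Without RSC2 its log2 fold change was -0.72 and passed p under 0.01.

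Alas2, the erythroid first enzyme of the pathway, needs separate mention. Under its symbol it was listed at 0 in all 3 SCP samples and at 1.23, 0 and 1.43 FPKM in RSC1, RSC2 and RSC3, so it was not tested. The tables also hold unnamed transcripts, which Cufflinks put together separately in each sample. Those that overlap Alas2 (chromosome X from 23167576 to 23187356) were at 24.8, 19.98 and 65.2 FPKM in SCP1, SCP2 and SCP3, at 0 in RSC1 and RSC3, and at 1.70 FPKM in RSC2. They begin at the same base as Alas2 and run past its other end, with lengths of 1878 to 1936 bases where the named transcript has 1893. With them counted, Alas2 was at 24.8, 19.98 and 65.2 FPKM in SCPs and at 1.23, 1.70 and 1.43 FPKM in RSCs. All SCP samples then lay above all RSC samples, the mean was 25.2 times higher in SCPs and the log2 fold change was -3.75 (SE 0.43, adjusted p = 0.00050, limma). With unnamed transcripts counted for every gene, 32 of the 34 were tested and 22 were higher in SCPs (32.9% of 14107 genes were), 16 of them over 4-fold (5.16% of all genes), and none in RSCs (21.9%). Many of these calls were again of genes with an RSC mean under 1 FPKM, which passed the filter through their SCP level. Ank1 and Ermap, with RSC means of 0.146 and 0.0607 FPKM, could be tested only through unnamed transcripts of the SCP samples.

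For iron import, Tfrc, the transferrin receptor, was at 13.2, 10.0 and 9.78 FPKM in SCPs and at 7.38, 6.21 and 5.49 FPKM in RSCs. The groups lay apart, and the log2 fold change of -0.70 passed at an unadjusted p of 0.0092 but not after adjustment (adjusted p = 0.023, limma). That call was lost under 11 of the 17 alternatives. Slc25a37, mitoferrin, which takes iron into the mitochondria of erythroblasts, was at 7.66, 5.01 and 12.7 FPKM in SCPs and at 0, 2.48 and 2.50 FPKM in RSCs, a log2 fold change of -1.96 that did not pass (adjusted p = 0.037, limma). With unnamed transcripts it was at 18.01, 10.6 and 28.8 FPKM in SCPs and at 10.6, 6.08 and 4.74 FPKM in RSCs, so RSC1, listed at 0 by name, became the highest RSC sample, and the log2 fold change of -1.27 did not pass either (adjusted p = 0.034, limma).

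**Figure D3:**
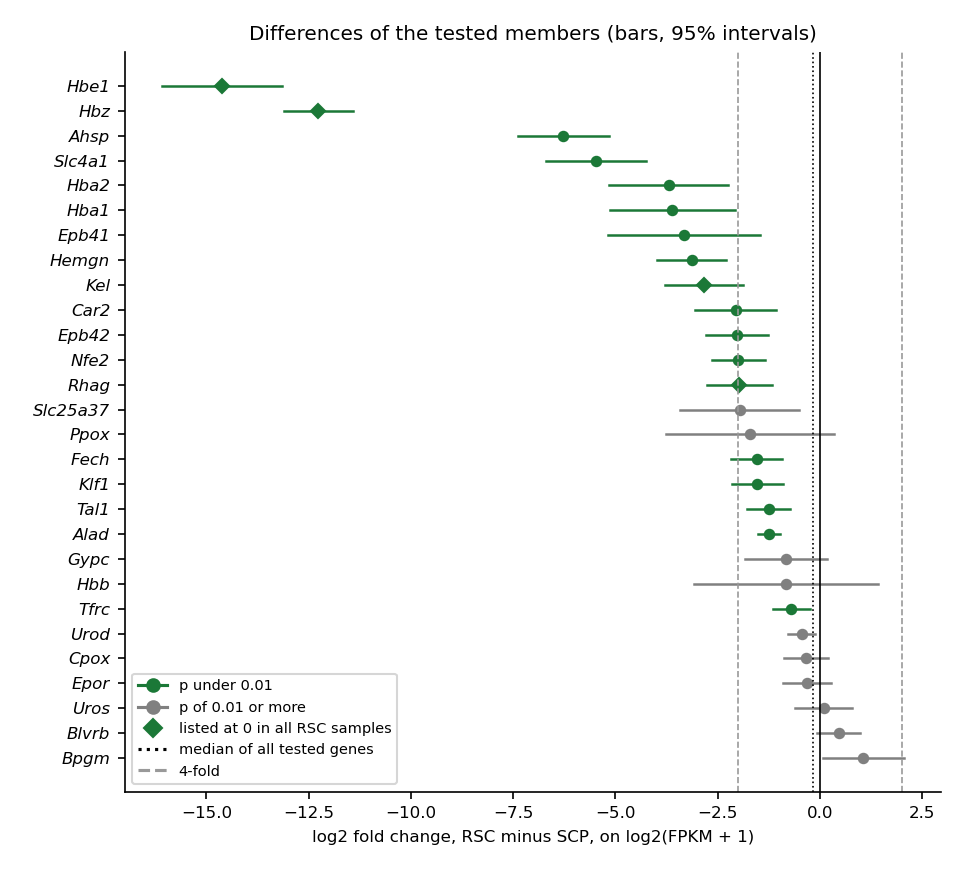
Points give the log2 fold change, RSC minus SCP on log2(FPKM + 1), of the 28 tested genes with 95% intervals from limma, in green where p is under 0.01, as diamonds where all RSC samples are listed at 0 (their values depend on the added 1), with dashed lines at 4-fold and a dotted line at the median of all genes, -0.17. The 18 green genes all lie on the SCP side, and the interval of Hbb runs from -3.07 to 1.42.

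Among membrane and skeleton genes, Slc4a1, the band 3 anion exchanger of the red cell membrane, was at 41.3, 22.8 and 94.3 FPKM in SCP1, SCP2 and SCP3, under 0.05 FPKM in RSC1 and RSC3 and at 0 in RSC2. The log2 fold change was -5.47 (SE 0.50, adjusted p = 0.00042, limma). Epb42, the band 4.2 protein that joins band 3 to the skeleton, was at 2.74, 2.19 and 5.17 FPKM in SCPs, at 0.0889 FPKM in RSC1 and at 0 in the others, with a log2 fold change of -2.03 (SE 0.31, adjusted p = 0.0031, limma). Both genes were highest in SCP3 and lowest in SCP2.

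Epb41, the protein 4.1 that links spectrin and actin and is made by many cell types, was at 37.3, 30.1 and 32.0 FPKM in SCPs and at 4.095, 6.72 and 0 FPKM in RSCs, with no overlap. Its log2 fold change of -3.32 (SE 0.75) had an unadjusted p of 0.0047 and an adjusted p of 0.014 (limma), and the call was lost under 6 alternatives. With unnamed transcripts counted, Epb41 was at 54.7, 50.4 and 51.6 FPKM in SCPs and at 11.1, 10.3 and 13.9 FPKM in RSCs. RSC3, listed at 0 by name, then lay beside the other RSC samples, and the log2 fold change was -2.07 (SE 0.13, adjusted p = 4.7e-05, limma).

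The other skeleton genes gave no call by name. Gypc, glycophorin C, was at 5.10, 13.3 and 15.3 FPKM in SCPs and at 4.08, 5.73 and 6.27 FPKM in RSCs. SCP1 lay among the RSC samples, and the log2 fold change of -0.84 did not pass (adjusted p = 0.14, limma). Adding an unnamed transcript that raised SCP1 to 13.8 FPKM separated the groups (log2 fold change -1.27, adjusted p = 0.00092, limma). Sptb, beta spectrin, was at 1.08 FPKM or less in all samples by name. With unnamed transcripts it was at 4.95, 4.23 and 7.23 FPKM in SCPs and at 3.68, 3.71 and 3.42 FPKM in RSCs, with no call (adjusted p = 0.078, limma). Ank1, the erythroid ankyrin, was listed at 0 in all SCP samples and at 0.0849, 0.232 and 0.123 FPKM in RSCs. Its unnamed transcripts were at 2.73, 6.91 and 4.43 FPKM in SCPs and at 0 in RSCs, and with them the log2 fold change was -2.25 (SE 0.29, adjusted p = 0.00086, limma).

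Genes of blood group carriers were low, and by name Rhag and Kel were above 0 in SCPs only. Both passed the filter of 1 FPKM through their SCP level alone. Rhag, the Rh-associated glycoprotein, was at 4.42, 1.65 and 3.16 FPKM in SCP1, SCP2 and SCP3 and at 0 in each RSC sample (adjusted p = 0.0039, limma). Kel, the Kell antigen peptidase, was at 5.47, 3.57 and 11.1 FPKM in SCPs and at 0 in each RSC sample (adjusted p = 0.0020, limma). Ermap, the Scianna antigen, was listed at 0 by name in all but RSC3, where it was at 0.182 FPKM. Its unnamed transcripts were at 4.72, 3.09 and 7.55 FPKM in SCPs and at 0 in RSCs, and with them the log2 fold change was -2.47 (SE 0.29, adjusted p = 0.00058, limma).

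**Figure D4:**
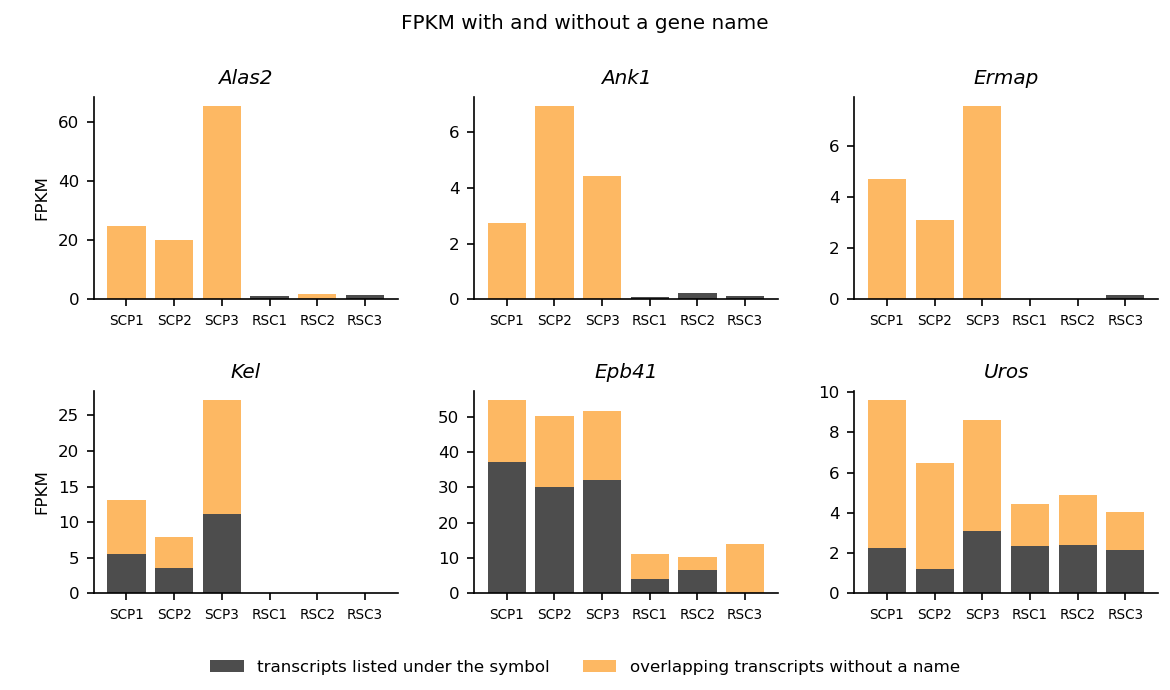
Bars from 0 give the FPKM of transcripts listed under the symbol (grey) and of overlapping transcripts without a name (orange) in each sample for Alas2, Ank1, Ermap, Kel, Epb41 and Uros, with a scale of its own for each gene. For Alas2, Ank1 and Ermap all FPKM of the SCP samples is in transcripts without a name, and for Epb41 the RSC3 value of 13.9 FPKM is too.

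The erythroid transcription factors were at low levels in SCPs and lower still in RSCs. Klf1, the factor of adult globin genes, was at 3.66, 2.197 and 2.50 FPKM in SCPs and at 0.317, 0.434 and 0.154 FPKM in RSCs, a log2 fold change of -1.53 (SE 0.25, adjusted p = 0.0040, limma). Nfe2 was at 3.43, 4.03 and 6.14 FPKM in SCPs and at 0.286, 0.522 and 0.286 FPKM in RSCs, a log2 fold change of -1.99 (SE 0.26, adjusted p = 0.0017, limma). The groups lay apart for both, with mean levels 9.24 and 12.4 times higher in SCPs, a wider gap than the log2 fold changes show, since 1 was added to low values. Tal1, which blood and endothelial cells share, was at 3.80, 3.43 and 3.30 FPKM in SCPs and at 1.12, 0.609 and 0.984 FPKM in RSCs (log2 fold change -1.25, adjusted p = 0.0046, limma). Of 10 endothelial markers, 2 passed p under 0.01, both toward RSCs, and 8 had no call, and the part of endothelial cells in the Tal1 values was not tested.

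Hemgn, hemogen, a nuclear protein of blood progenitors, was at 8.65, 4.99 and 12.8 FPKM in SCPs and at 0, 0.0820 and 0.0869 FPKM in RSCs, a log2 fold change of -3.13 (SE 0.34, adjusted p = 0.00083, limma). Gata1, the main erythroid GATA factor, was at 1.33, 0.384 and 2.92 FPKM in SCPs and at 0, 0.114 and 0.120 FPKM in RSCs, apart but under the level tested. Trim10, a ring finger protein of erythroid cells, was likewise apart and untested, at 0.644, 0.677 and 1.27 FPKM in SCPs and at 0, 0 and 0.378 FPKM in RSCs. Epor, the erythropoietin receptor, did not separate the groups, at 1.42, 1.13 and 1.84 FPKM in SCPs and at 0.664, 1.09 and 1.16 FPKM in RSCs (adjusted p = 0.32, limma).

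The 3 red cell enzymes differed among themselves. Car2, a carbonic anhydrase, was at 14.7, 5.60 and 8.47 FPKM in SCPs and at 0.661, 1.81 and 1.92 FPKM in RSCs, a log2 fold change of -2.06 (SE 0.40, adjusted p = 0.0078, limma). Its mean was 6.55 times higher in SCPs by name and 15.98 times with unnamed transcripts, which were found at Car2 in SCP2 and SCP3 alone. These were pieces of 555 bases (7.62 FPKM) in SCP2 and 449 bases (33.8 FPKM) in SCP3, where named Car2 has 1459. Their FPKM was added as listed, so the ratio of 15.98 is uncertain. Bpgm, which makes the oxygen-releasing metabolite 2,3-bisphosphoglycerate in red cells, was at 17.005, 30.3 and 55.6 FPKM in SCPs and at 68.8, 67.3 and 59.9 FPKM in RSCs. By name, it was the only member whose tested values lay wholly higher in RSCs, but its log2 fold change of 1.06 did not pass (adjusted p = 0.076, limma). Blvrb, biliverdin reductase B, was at 32.2, 28.4 and 50.4 FPKM in SCPs and at 52.1, 48.3 and 48.5 FPKM in RSCs, with overlap through SCP3 (log2 fold change 0.46, adjusted p = 0.13, limma). With unnamed transcripts counted, Blvrb was at 58.6, 53.7 and 56.4 FPKM in RSCs, above all SCP samples. Neither Blvrb (log2 fold change 0.63, adjusted p = 0.038, limma) nor Bpgm (0.65, adjusted p = 0.027, limma) then passed p under 0.01. By name, without SCP3 both Bpgm and Blvrb passed p under 0.01 as higher in RSCs.

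The 3 SCP samples differed from each other in a way that only some of the genes shared. Of the 18 genes called higher in SCPs, SCP3 was highest for 10, SCP1 for 8 and SCP2 for none, and SCP2 was lowest for 13 (72.2%). Over all 2917 genes called higher in SCPs, SCP3 was highest for 20.7%, SCP1 for 1562 genes, and SCP2 lowest for 29.5%. Of the 14 called genes other than globins, SCP3 was highest for 7 and SCP1 for 7, and SCP2 was lowest for 11. The median ratio of SCP3 to the mean of SCP1 and SCP2 was 1.26 for these 14 genes, 1.56 for all 18 and 0.924 for the 2917. SCP3 held 4.63, 4.19 and 4.44 times the mean of SCP1 and SCP2 for Hba1, Hba2 and Hbe1, and 6.64 times for Hbb, which was not called. The ratio was 2.94 for Slc4a1, 2.45 for Kel and 2.27 for Ahsp. It was lower for Hbz (1.33) and close to 1 or below it for Alad (0.984), Epb41 (0.951), Tal1 (0.913), Klf1 (0.854), Tfrc (0.842) and Car2 (0.832). With unnamed transcripts counted, the ratio rose to 3.03 for Car2, 1.96 for Tal1 and 1.41 for Klf1, and it was 0.563 for Tfrc. The rise for Car2 came through the piece of 449 bases in SCP3. With unnamed transcripts SCP3 was highest for 14 of the 18 genes, and the share over all genes was not counted in that setting.

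**Figure D5:**
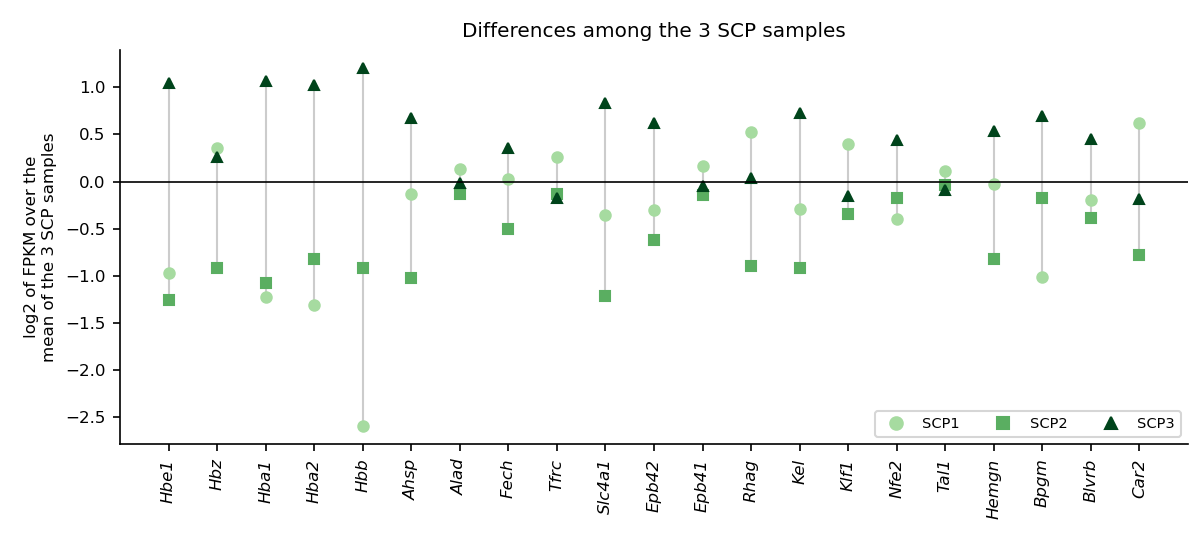
Points give, for the 18 genes called higher in SCPs and for Hbb, Bpgm and Blvrb, the log2 of each SCP sample's FPKM over the mean of the 3 SCP samples, with the grey line spanning their range. SCP3 is highest for all 5 globins but Hbz, and SCP2 is the highest sample for none of these 21 genes.

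Further genes of the same pathways, from lists of 115 symbols of which 97 were listed and 84 tested, showed both directions, with p under 0.01 for 17 genes (20.2%) on the SCP side, close to the 22.4% of all genes tested, and 24 (28.6%) on the RSC side, where 18.1% of all genes were. No list was tested as a whole. The 22 tested genes of the wider erythroid list had 8 (36.4%) higher in SCPs and 7 (31.8%) in RSCs. Rhd, the Rh antigen, was at 8.51, 4.81 and 11.2 FPKM in SCPs and at 0.351, 0 and 0.170 FPKM in RSCs (log2 fold change -2.91, adjusted p = 0.0010, limma). The genes of this list with the largest change toward RSCs were Aqp1, a water channel of red cells and endothelium, at 0.638, 1.13 and 1.72 FPKM in SCPs and 37.1 to 41.0 FPKM in RSCs (log2 fold change 4.25, adjusted p = 5.9e-05, limma), and Tmod1, tropomodulin, listed at 0 in SCPs and at 13.2, 11.7 and 6.55 FPKM in RSCs.

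Of 22 tested further regulators, 2 (9.09%) were higher in SCPs and 5 (22.7%) in RSCs. Bcl11a, known for silencing embryonic and fetal globin genes in adult erythroid cells and also made by neurons, was at 8.26, 6.93 and 8.12 FPKM in SCPs and at 0, 0.149 and 0.172 FPKM in RSCs (log2 fold change -2.99, adjusted p = 0.00014, limma). Ldb1, a looping cofactor of GATA1 and TAL1 with wide expression, was at 143, 139.99 and 131 FPKM in SCPs and at 53.8, 55.9 and 60.9 FPKM in RSCs (log2 fold change -1.27, adjusted p = 0.00012, limma). Both had much less spread among SCPs than the globins had. Jak2, the kinase of the erythropoietin receptor and of many cytokine receptors, and Mafk, the partner of NFE2, rose toward RSCs (log2 fold changes 2.41 and 1.68, adjusted p = 0.0022 and 0.00037, limma).

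For heme and iron outside the set, 6 of 23 tested genes (26.1%) were higher in SCPs and 6 (26.1%) in RSCs. The heme carrier Flvcr2 was higher in RSCs (log2 fold change 1.81, adjusted p = 0.0014, limma). Tf, transferrin, which Schwann cells also make, was at 4.08, 11.8 and 16.8 FPKM in SCPs and at 141, 204 and 156 FPKM in RSCs (log2 fold change 3.98, adjusted p = 0.0011, limma). For heme breakdown and iron export, 5 of 11 tested genes (45.5%) were higher in RSCs and 1 (9.09%) in SCPs. Hmox1, which opens the heme ring, was at 5.87, 6.30 and 14.1 FPKM in SCPs and at 51.4, 67.2 and 64.1 FPKM in RSCs (log2 fold change 2.75, adjusted p = 0.0012, limma). Cp, the ferroxidase ceruloplasmin, was at 4.44, 6.10 and 1.75 FPKM in SCPs and at 77.3 to 84.9 FPKM in RSCs, while Heph, the related hephaestin, was at 19.3, 15.1 and 14.6 FPKM in SCPs and at 1.92, 4.90 and 4.71 FPKM in RSCs (log2 fold changes 4.12 and -1.90, adjusted p = 0.00033 and 0.0042, limma). All 11 tested macrophage markers, cells known for heme breakdown, were higher in RSCs at p under 0.01 as well, and their part in these values was not tested. Cd163 is on both lists and is counted among both the 5 and the 11.

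Megakaryocytes and platelets share GATA1, TAL1, NFE2 and other factors with red cells, and their 10 markers summed to 34.6, 24.2 and 12.7 FPKM in SCP1, SCP2 and SCP3 and to 67.2, 152 and 108 FPKM in RSCs. Most of this was Pf4, at 27.98, 21.6 and 10.7 FPKM in SCPs and at 65.1 FPKM or more in RSCs, so the higher sum in RSCs came from Pf4. The other 9 markers were below the mean of 1 FPKM and were not tested. Most of these had a higher mean in SCPs, as Gp9 (1.09 against 0.369 FPKM) and Gp1ba (0.420 against 0 FPKM). Treml1 went the other way (0.649 against 0.729 FPKM), and Gp1bb was at 0 in all samples. The defining gene Itga2b was at 2.56, 0.338 and 0 FPKM in SCP1, SCP2 and SCP3 and at 0, 0.333 and 0 FPKM in RSC1, RSC2 and RSC3. The sum of the 10 markers, set mostly by Pf4, was lowest in SCP3, the sample with the highest globin level.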

How the data were processed

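RNA of 3 SCP and 3 RSC samples was sequenced by the authors from stranded mRNA libraries as paired-end reads. Reads were mapped to rn6 and analysed with TopHat2 2.1.0 and Cufflinks 2.2.1 after FastQC 0.11.2, per the submitters' processing notes. The authors deposited, for each sample, a Cufflinks table of transcripts in FPKM with its confidence bounds, and the read coverage, a signal used here only for relative depth. Replicates were not pooled. How Cufflinks divided reads among near-identical globins is not stated, and FPKM lay outside its own deposited bounds in 14 of the 24 globin values above 0, against 3 of 172 for the other genes.

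FPKM of named transcripts were summed by symbol, leaving out 77 transcripts per table with names turned into dates. Values with the deposited status LOWDATA were kept. Among them were the main Hemgn transcript in all 6 samples, Bpgm in SCP1 and Hba1 in RSC2. limma 3.58.1 in R 4.3.3 was run on log2(FPKM + 1), with a variance trend and no block, over 13003 genes with mean FPKM of at least 1. Fold changes are on that scale and understate low genes. The call was an unadjusted p under 0.01, with a log2 fold change over 2 for 4-fold, and adjusted p are Benjamini-Hochberg values. Tests were two-sided, and sums were tested with exact permutation tests (scipy 1.17.1). The study's Cuffdiff was not rerun. The fit was first tested on simulated data. Unnamed transcripts were added, as an alternative, to the named gene whose transcript they overlap most, with FPKM as listed whatever their length. Positions are from the deposited tables, counted from 1.

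The 34 genes and all lists were chosen with earlier results of these data known, so no count here is independent support. Named genes are the 34, the other globins above 0 that bear on them, and the 2 genes with the largest change in each direction of each further list. A few of these are not reported here. Replicate numbers come from the labels and did not pair the samples. With no counts, precision rests on the 3 samples per group, whose p-values measure the spread between sets of cells. Alternatives tried were adding 0.1, testing every symbol above 0, a minimum of 5 FPKM, quantile and median-of-ratios scaling, rescaling without globins, no variance trend, a replicate block, adjusted p, the highest transcript, unnamed transcripts and each sample left out.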

Additional observations from a re-analysis of the deposited data

Results flagged for a closer look

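Transcripts without a name, which the main comparison does not use, held more FPKM in every SCP sample than in any RSC sample at 8 of the 34 genes. The share of all genes with such a split was not counted. Over the whole series, unnamed transcripts numbered 11479, 12417 and 11355 in SCP1, SCP2 and SCP3 and 8963, 9119 and 8815 in RSC1, RSC2 and RSC3. With Hbe1 included, they held 26.1% to 31.9% of all FPKM in SCPs and 18.6% to 23.4% in RSCs. A larger number of them in SCPs was therefore not particular to these genes. At Hbe1 they were at 11441, 5962 and 68432 FPKM in SCP1, SCP2 and SCP3 and at 0 in RSCs, on top of the named level. At Alas2 they were at 24.8, 19.98 and 65.2 FPKM in SCP1, SCP2 and SCP3, and in RSCs at 1.70 FPKM in RSC2 and at 0 in the other two. At Ermap they were at 4.72, 3.09 and 7.55 FPKM and at Ank1 at 2.73, 6.91 and 4.43 FPKM in SCP1, SCP2 and SCP3, and at 0 in RSCs for both. At Kel they were at 7.64, 4.28 and 16.03 FPKM in SCP1, SCP2 and SCP3 and at 0 in RSCs. At Epb41 they were at 17.4, 20.2 and 19.5 FPKM in SCP1, SCP2 and SCP3 and at 3.61 to 13.9 FPKM in RSCs. At Uros they were at 7.34, 5.24 and 5.50 FPKM and at Sptb at 4.42, 4.23 and 6.16 FPKM in SCP1, SCP2 and SCP3, against 1.91 to 2.51 and 3.01 to 3.71 FPKM in RSCs. In SCP1 and SCP3 a further unnamed transcript, at 1058 and 5122 FPKM, spanned Hba2 and Hba1 and was counted with the gene between them, Hbq1b, so it enters no value of the adult globins. Groups of 3 samples were not tested for outliers.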

How the results depend on the processing

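Of the 18 calls, 11 could be tested under all 17 alternatives, and 8 of these held throughout. The other 7 had a mean under 5 FPKM, and 6 of them held wherever they were tested. None of the 18 changed direction. Car2 lost its call with the replicate block, Tal1 with the highest transcript per symbol, Epb41 under 6 alternatives and Tfrc under 11. The count higher in SCPs was 11 with a mean FPKM of at least 5, where fewer genes were tested, 16 with the replicate block and 22 with unnamed transcripts added (background 32.9%). The count higher in RSCs ranged from 0 to 2 when 1 sample was left out, and was 2 without SCP3. The sign turned for Hbb without SCP3 (log2 fold change 0.16), and for Uros with quantile normalization (-0.015), the highest transcript (-0.088), unnamed transcripts (-0.74, adjusted p = 0.0091, limma) and without SCP2 (-0.15). With 1 sample left out, Hbb ranged from -1.74 to 0.16 and Uros from -0.15 to 0.29, and the cause was not tested. Median-of-ratios scaling moved the median of all genes from -0.17 to 0.02 and the share of calls higher in RSCs from 44.6% to 56.1%. With the replicate block 4275 of all genes were called, against 5268 without it, and the numbers share no more than a number (correlations of deviations 0.044, -0.0049 and 0.026 for same-numbered samples). With the block the permutation p of both globin sums was 0.25, the smallest that 3 pairs allow. Adding unnamed transcripts raised the calls to 7728 of 14107 genes. Listed zeros have deposited upper bounds, such as 0.203 FPKM for Alas2 in SCP1, where unnamed transcripts were at 24.8 FPKM. With no counts, a listed 0 and its bound were therefore not read as an upper limit for the gene.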
